A study of Mus musculus with 20 samples.

Results

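The genes described here are the CDK inhibitors Cdkn1a, Cdkn1b, Cdkn2a, Cdkn2b, Cdkn2c and Cdkn2d, the D cyclins Ccnd1, Ccnd2 and Ccnd3, and the retinoblastoma gene Rb1. They were chosen by name, with earlier results of these data known, and make up 10 of the 29956 gene rows. Each had 1 row, and all 10 passed the filter on low counts that left 13541 genes for testing. Poly(A) RNA came from melb-a, an immortal mouse melanoblast line that the labels give as wild type. HIRA, a chaperone that places the histone variant H3.3 into chromatin outside of DNA replication, was targeted with lentiviral short hairpin RNAs. All 20 libraries were from this single line, 4 in each of 5 groups, which the design text calls independent replicates, so p-values measure the spread between these cultures.

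Parental cells received no virus. The control groups carried a hairpin against luciferase (shLuciferase) or a scrambled hairpin (shScramble), and the remaining groups carried 1 of 2 hairpins against Hira, shHIRA I or shHIRA II. Cells were exposed to virus for 16 h in the presence of polybrene (8 µg/ml), and puromycin at 1 µg/ml selected those infected. All cells grew with 10% serum, 10 ng/ml SCF and 40 pM Fgf2. Parental cells therefore differ from the control hairpin groups in virus, hairpin and selection together, and these cannot be told apart.

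D cyclins bind CDK4 or CDK6 in G1, and the kinases then phosphorylate the retinoblastoma protein, which releases E2F factors and lets a cell enter S phase. The Ink4 proteins p16Ink4a, p15 (Cdkn2b), p18 (Cdkn2c) and p19Ink4d (Cdkn2d) block CDK4 and CDK6. The Cip/Kip proteins p21 (Cdkn1a) and p27 (Cdkn1b) act mainly on CDK2 complexes and can also help D cyclins assemble with their kinase. Cdkn2a encodes p16Ink4a and, from another promoter and in another reading frame, p19Arf, which protects p53 by binding Mdm2. Loss of Cdkn2a is a common route to immortality of cultured mouse cells and melanocytes.

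Promoters are shown for the 4 genes whose group mean was highest with shHIRA I (Ccnd3, Cdkn2b, Cdkn1b and Cdkn2a). For Cdkn2a a value also sums transcripts from a pair of promoters that the deposited gene tables cannot separate. The sequences are RefSeq windows of the 250 bases before a start site on GRCm38.p6, read 5′ to 3′ on the gene's strand, and end earlier where GENCODE places untranslated exon. Such windows were found for 7 of the 10 genes. Capitals mark GGGCGG (the GC box) and TGACG (the core of the cyclic AMP response element) on either strand.
Ccnd3, distal start, plus strand, chr17:47504801-47505050: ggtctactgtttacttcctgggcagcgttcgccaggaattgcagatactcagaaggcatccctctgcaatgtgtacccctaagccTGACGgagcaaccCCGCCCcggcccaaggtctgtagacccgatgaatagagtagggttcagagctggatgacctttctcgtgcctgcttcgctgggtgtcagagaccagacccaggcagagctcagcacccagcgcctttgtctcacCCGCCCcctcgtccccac
Ccnd3, proximal start, plus strand, chr17:47593217-47593466: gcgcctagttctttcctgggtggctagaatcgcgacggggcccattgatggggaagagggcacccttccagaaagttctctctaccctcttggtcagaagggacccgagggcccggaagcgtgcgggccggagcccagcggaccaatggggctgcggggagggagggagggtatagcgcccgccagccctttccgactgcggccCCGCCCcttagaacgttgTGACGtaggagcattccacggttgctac
Cdkn2b, minus strand, chr4:89311040-89311282: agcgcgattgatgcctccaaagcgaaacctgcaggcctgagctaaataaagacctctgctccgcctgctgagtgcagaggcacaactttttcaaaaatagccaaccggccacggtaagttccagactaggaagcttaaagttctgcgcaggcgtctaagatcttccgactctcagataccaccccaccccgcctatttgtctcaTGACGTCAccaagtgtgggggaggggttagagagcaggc
Cdkn1b, plus strand, chr6:134920151-134920400: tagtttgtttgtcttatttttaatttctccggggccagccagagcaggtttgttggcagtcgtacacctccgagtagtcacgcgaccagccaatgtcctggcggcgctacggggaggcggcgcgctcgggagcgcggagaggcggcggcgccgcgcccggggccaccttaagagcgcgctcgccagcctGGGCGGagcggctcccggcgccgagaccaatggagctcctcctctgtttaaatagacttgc
Cdkn2a, p19Arf start, minus strand, chr4:89294654-89294869: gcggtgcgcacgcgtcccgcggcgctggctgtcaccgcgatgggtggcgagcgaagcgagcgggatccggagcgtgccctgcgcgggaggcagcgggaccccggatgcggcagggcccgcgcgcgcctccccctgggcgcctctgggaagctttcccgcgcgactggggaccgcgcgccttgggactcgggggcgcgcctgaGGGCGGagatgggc
Cdkn2a, p16Ink4a start, minus strand, chr4:89282193-89282442: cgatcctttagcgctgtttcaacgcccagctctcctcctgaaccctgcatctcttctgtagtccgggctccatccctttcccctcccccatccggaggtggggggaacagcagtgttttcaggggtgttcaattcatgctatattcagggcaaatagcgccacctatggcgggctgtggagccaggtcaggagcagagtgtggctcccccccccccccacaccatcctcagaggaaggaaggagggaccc

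In the full windows of 250 bases, Ccnd3 held TGACG at both starts, and Cdkn2b held it on both strands as the overlapping pair TGACGTCA. The Cdkn1b window and both Cdkn2a windows held no TGACG. It was present in 17.8% of 32851 RefSeq windows of that length. GGGCGG, present in 32.7% of windows, occurred in both Ccnd3 windows, in the Cdkn1b window and in the p19Arf window. Neither motif was in the p16Ink4a window. The E-boxes CACGTG and CATGTG (6.02% and 12.3% of windows), the E2F letters TTTCGCGC or TTTGGCGC (0.654%) and TATAAA (12.4%) were searched on both strands and found in none of these 6 windows. The p19Arf window was 78.4% G and C and held 40 CG pairs, where the p16Ink4a window held 7.

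In GENCODE M21 (GRCm38), Cdkn2a lies at chr4:89274471-89294653 and Cdkn2b at chr4:89306299-89311039, both on the minus strand with 11645 bases between them. Ccnd3 spans chr17:47505051-47599691 on the plus strand. Ccnd1 is at chr7:144929931-144939925 and Ccnd2 at chr6:127125162-127152193, both on the minus strand, and Rb1 at chr14:73183673-73325822, also minus. Cdkn1a lies at chr17:29090976-29100727 and Cdkn1b at chr6:134920401-134925513 on the plus strand, and Cdkn2c at chr4:109660876-109667189 and Cdkn2d at chr9:21288410-21291407 on the minus strand. No stretch of 31 bases in the transcripts of any Ink4 gene occurred in another gene. For Ccnd1, 22.3% of such stretches lay also in LTO1, a gene that overlaps its end on the opposite strand, and for Rb1 13.2% were shared, mostly with Rcbtb2. Shares were 9.78% for Cdkn1a, 7.95% for Ccnd3, 6.95% for Ccnd2 and 0.0874% for Cdkn1b. The library kit marks strand, but whether the authors' counting used it was not given, so reads of these genes and their antisense partners may be mixed.

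Every one of the 10 genes was expressed. Each had 1 TPM (transcripts per 1e6 transcripts, a level corrected for transcript length) or more in all 4 libraries of all 5 groups, and none was listed at 0 in any library. At 5 TPM in every library of a group, 9 of 10 passed in each group, and the gene that did not was Cdkn2b. So the line carries mRNA of all 6 inhibitor genes described here, Cdkn2a included. Cdkn1c, which encodes the remaining Cip/Kip protein p57, had group means of 0.0764 to 0.402 TPM and did not pass the filter on low counts. The gene tables do not say whether the Cdkn2a mRNA codes for p16Ink4a, for p19Arf or for both, nor whether it makes protein.

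**Figure D1:**
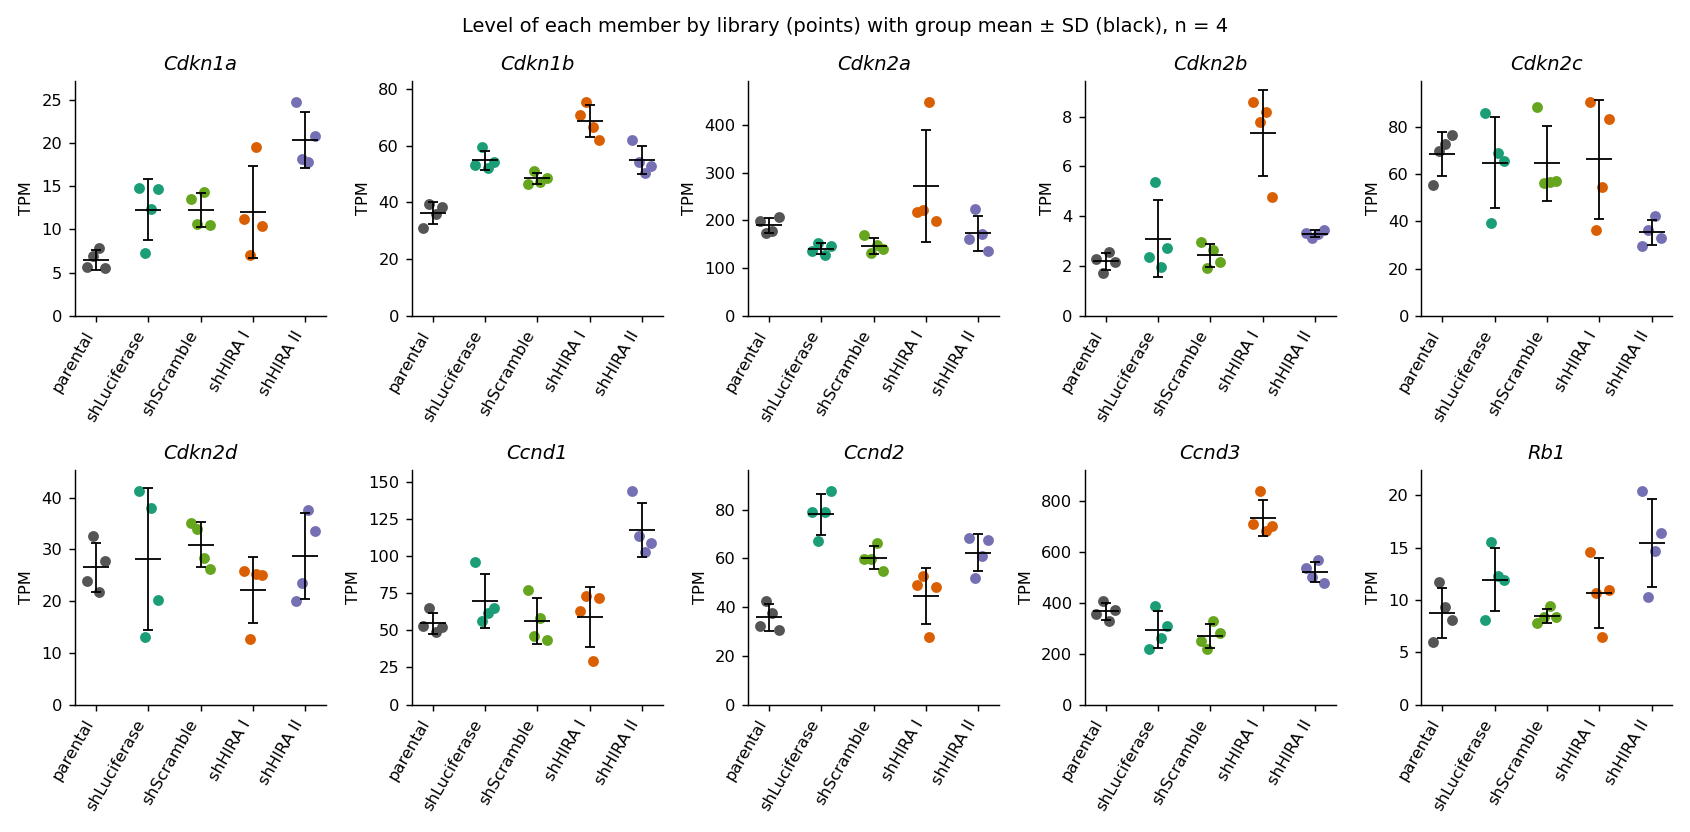
Level in TPM of each gene (y axis, from 0, own scale) in each of the 20 libraries (points), with group mean ± SD in black (n = 4), by group on the x axis. All Ccnd3 values with either hairpin against Hira, 479 to 839 TPM, lie above all others, which reach at most 407 TPM.

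In parental cells the order of levels was Ccnd3 (366 ± 32.6 TPM, SD, n = 4), Cdkn2a (189 ± 15.5), Cdkn2c (68.4 ± 9.28), Ccnd1 (54.9 ± 7.11), Cdkn1b (36.1 ± 3.85), Ccnd2 (35.8 ± 5.48), Cdkn2d (26.5 ± 4.79), Rb1 (8.77 ± 2.36), Cdkn1a (6.47 ± 1.12) and Cdkn2b (2.19 ± 0.346). Ccnd3 was as high as or higher than 97.7% of the tested genes and Cdkn2a 95.2%, while Cdkn2b stood at 25.2%. Ccnd3 was the most abundant D cyclin and Cdkn2a the most abundant inhibitor in 20 of 20 libraries. Cdkn2b was the least abundant inhibitor in 19 of 20, with at least 35 estimated counts in every library. In the exception, replicate 2 of shHIRA I, Cdkn1a was lowest. For their shared partner kinases, Cdk4 had group means of 545 to 675 TPM and Cdk6 of 3.44 to 4.4 TPM, and neither was called in any of the 7 comparisons.

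Comparisons were made with edgeR's quasi-likelihood test over all 20 libraries, and a gene was called at a Benjamini-Hochberg adjusted p under 0.05 over all tested genes. SE is the standard error of a log2 fold change. Hira, the targeted gene, was checked first. Its level was 32.9, 19.6, 22.1 and 22.9 TPM with shHIRA I, against 36.1 to 57.8 TPM in the 8 control hairpin libraries. The log2 fold change was -1.05 (SE 0.14, edgeR adjusted p = 5.15e-05). The 4 libraries labelled shHIRA II held 41.5, 35.1, 50.4 and 49.2 TPM, a log2 fold change of -0.19 (SE 0.14, edgeR adjusted p = 0.306), so a lower Hira mRNA was not shown there. The share of counts from mitochondrial mRNA was 5.5 to 9.96% in parental and control hairpin libraries, 2.88 to 4.71% in those labelled shHIRA II, 5.74 to 9.58% in 3 shHIRA I libraries and 1.23% in shHIRA I replicate 3, which also had the smallest total (15 of 15 to 20.7 M counts, M being 1e6). That library and shHIRA II replicate 2 had the lowest shares, and calls of the 10 genes that change without both are given where they arise. Melanocyte lineage markers (9 of 10 tested) summed to 2480 to 4290 TPM in parental and control hairpin libraries, 975 to 2990 with shHIRA I and 661 to 1060 in the libraries labelled shHIRA II. Of these, Ednrb was at or near 0 in all groups and Sox10 had group means of 0.0257 to 3.79 TPM. Pax3 did not follow the sum. Its means were 58.4 TPM with shHIRA I and 43.9 with shHIRA II, against 56.4 with shLuciferase and 43.4 with shScramble. In bulk RNA, fewer cells of a type and less RNA per cell cannot be told apart.

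Against both control hairpin groups, 3 of the 10 genes rose with the Hira hairpins pooled (Ccnd3, Cdkn2b, Cdkn2a) and 2 fell (Ccnd2, Cdkn2c). Of 28 alternative analyses (another scaling, filter, tool or model, or libraries left out), 28 called Ccnd3 and Ccnd2, 27 Cdkn2b, 18 Cdkn2c and 8 Cdkn2a. Most alternatives left out 1 library each. Where that library lay outside a comparison, it could act only through the shared filter, scaling and spread, which is a weaker check. Cdkn2b was not called with the mitochondrial share as a covariate (0.62, edgeR adjusted p = 0.0849), nor Cdkn2c by limma on TPM (-0.43, adjusted p = 0.0909). These 5 calls of 10 compare with 29.3% of all tested genes called (14.2% higher, 15.1% lower), and the median log2 fold change was 0.27 against 0.03 over all genes. With shHIRA I alone Ccnd3, Cdkn2b and Cdkn2a rose and Ccnd2 fell (4 of 10, against 19.7% of all genes, 10.9% higher and 8.87% lower). In the libraries labelled shHIRA II, Ccnd3, Ccnd1 and Rb1 rose and Cdkn2c fell (4 of 10, against 32.4% of all genes, 15.7% higher and 16.7% lower). Ccnd3 was the sole gene of the 10 called with each hairpin in 1 direction. Between the hairpins 5 of 10 differed, against 21% of all genes. Ccnd1 and Ccnd2 were higher with shHIRA II (8.6% of all genes), and Ccnd3, Cdkn2b and Cdkn2c lower (12.4%).

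**Figure D2:**
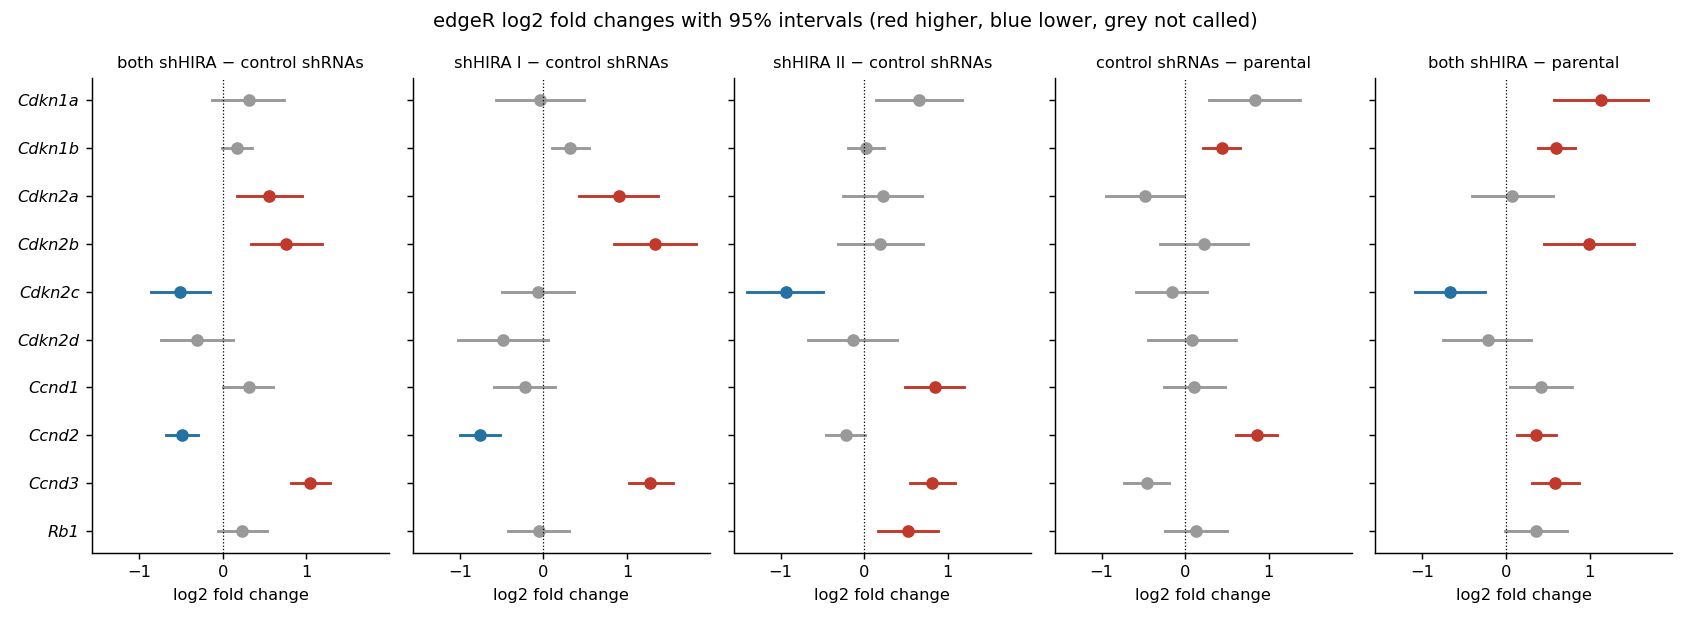
Log2 fold change of each gene (points, x axis) with its approximate 95% interval (lines) in 5 comparisons, from edgeR over all 20 libraries. Red marks a gene called higher and blue a gene called lower at an adjusted p under 0.05, and Ccnd3 is red in the 3 comparisons of hairpins against Hira with control hairpins.

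Of the D cyclins, Ccnd3 is the form most often tied to differentiating cells. It stood at 709, 839, 682 and 701 TPM with shHIRA I and at 537, 501, 569 and 479 TPM in the libraries labelled shHIRA II. Levels were 217, 388, 263 and 310 TPM with shLuciferase, 249, 218, 328 and 283 TPM with shScramble and 356, 407, 329 and 372 TPM in parental cells. All 8 libraries with hairpins against Hira lay above all 12 others, and shHIRA I lay wholly above shHIRA II. Ccnd3 alone among the 10 genes separated all Hira hairpin from all control hairpin libraries, where 3.41% of tested genes did so. Its log2 fold change with the Hira hairpins together was 1.05 (SE 0.12, edgeR adjusted p = 4.19e-06), or 2.07-fold. By hairpin it was 1.28 (SE 0.14, edgeR adjusted p = 4.88e-06) with shHIRA I and 0.81 (SE 0.14, edgeR adjusted p = 0.000219) with shHIRA II, and these 3 calls held in 28 of 28 alternative analyses. The difference between the hairpins, -0.47 (SE 0.16, edgeR adjusted p = 0.047), held in only 12 of 28, and without the pair of libraries of lowest mitochondrial share it was -0.45 (edgeR adjusted p = 0.0692).

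Ccnd2, a D cyclin often induced by growth signals, went the other way with shHIRA I. It was 78.9, 67.1, 79.1 and 87.6 TPM with shLuciferase, 59.6, 59.7, 66.5 and 55 TPM with shScramble, and 49.1, 52.9, 27.6 and 48.4 TPM with shHIRA I. The libraries labelled shHIRA II held 68.5, 52.1, 61.1 and 67.6 TPM, within the control range apart from replicate 2. Every shHIRA I library was below every control hairpin library, with replicate 3 lowest. Ccnd2 had a log2 fold change of -0.76 (SE 0.12, edgeR adjusted p = 0.000277) with shHIRA I and -0.22 (SE 0.12, edgeR adjusted p = 0.166) with shHIRA II, and the difference between the hairpins was itself called at 0.54 (SE 0.14, edgeR adjusted p = 0.00982). Parental cells had the lowest mean, with 32.3, 42.6, 37.7 and 30.6 TPM, all below the control hairpin libraries.

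Ccnd1, the D cyclin that responds to MAP kinase signalling in many melanocytic cells, was high in the libraries labelled shHIRA II alone. These held 144, 114, 103 and 109 TPM, against 96.3, 56.1, 62 and 65.3 TPM with shLuciferase and 77.2, 46.2, 58.6 and 43.3 TPM with shScramble. This was a log2 fold change of 0.84 (SE 0.18, edgeR adjusted p = 0.00164), and all 4 libraries were above all 8 control hairpin libraries. With shHIRA I the values were 62.9, 73, 29.7 and 71.7 TPM, with replicate 3 the lowest of all 20, and a log2 fold change of -0.22 (SE 0.19, edgeR adjusted p = 0.437). The hairpins differed by 1.06 (SE 0.22, edgeR adjusted p = 0.00194).

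Summed over the 3 D cyclins, TPM was 837 ± 93.5 with shHIRA I and 701 ± 47.2 with shHIRA II (SD, n = 4), against 457 ± 42.1 in parental cells, 442 ± 55.4 with shLuciferase and 386 ± 53.2 with shScramble. Ccnd3 made up 87.7 ± 3.08% of that sum with shHIRA I, 74.4 ± 2.57% with shHIRA II, 80.2 ± 1.27% in parental cells, 65.8 ± 8.46% with shLuciferase and 69.6 ± 4.49% with shScramble. Ccnd2 exceeded Ccnd1 in 3 of 4 shLuciferase and 3 of 4 shScramble libraries and in 0 of the 12 other libraries.

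**Figure D3:**
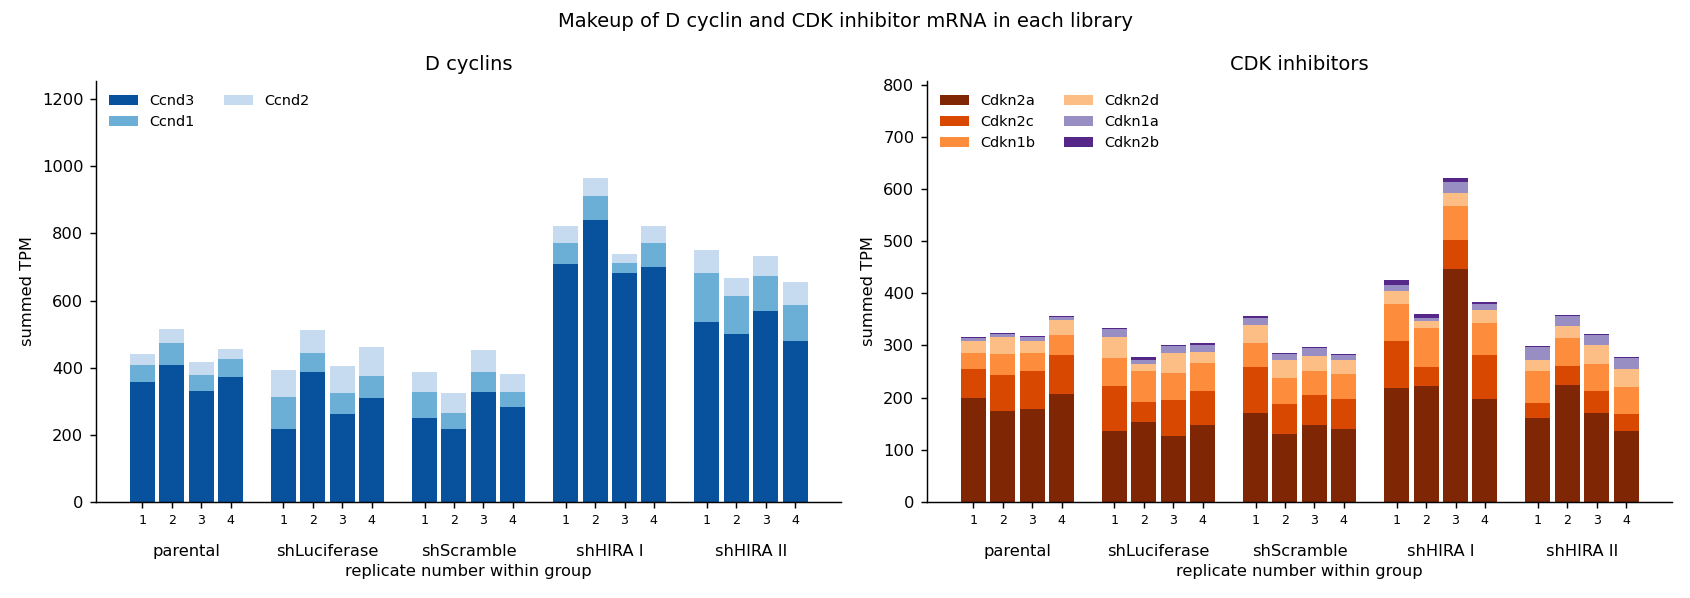
Summed TPM (y axis, from 0) of the D cyclins (left) and the CDK inhibitors (right) in each library, stacked by gene, with replicates side by side within each group. Ccnd3 forms the largest block of D cyclin mRNA and Cdkn2a the largest of inhibitor mRNA in 20 of 20 libraries.

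Among the Ink4 genes, Cdkn2b, which encodes p15 and is known as a target of TGF-beta signalling, had the largest rise with shHIRA I. It stood at 8.57, 7.79, 8.17 and 4.79 TPM there, at 2.36, 5.36, 1.97 and 2.73 TPM with shLuciferase and at 2.96, 1.94, 2.65 and 2.17 TPM with shScramble. The ranges overlapped through shLuciferase replicate 2 and shHIRA I replicate 4. The log2 fold change was 1.34 (SE 0.25, edgeR adjusted p = 0.000964), or 2.53-fold, called in 28 of 28 alternatives. The libraries labelled shHIRA II held 3.34, 3.13, 3.3 and 3.44 TPM, a log2 fold change of 0.19 with an interval of -0.32 to 0.7 (edgeR adjusted p = 0.61), and were all below shHIRA I. The hairpins differed by -1.15 (SE 0.31, edgeR adjusted p = 0.0115). Fibroblast markers (6 of 7 tested) summed to 95.4 to 326 TPM with shHIRA I, 14.2 to 21.6 with shHIRA II and 25.2 to 56.5 elsewhere. Most of the shHIRA I sum was Postn and Dcn, with means of 90.3 and 52.9 TPM. Col1a1 had a mean of 4.04 TPM there, against 0.564 with shLuciferase and 0.164 with shScramble, and Col1a2 18.3 against 8.13 and 6.51. Lum had a mean of 0.981 TPM with shHIRA I, against 1.53 with shLuciferase and 1.54 with shScramble, and Pdgfra 0.768 against 0.682 and 0.779. Col3a1 had group means of 0 to 0.199 TPM, the highest with shHIRA I. The part of these markers in the Cdkn2b result was not tested.

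Cdkn2a, the p16Ink4a and p19Arf gene, was higher with shHIRA I, but 1 library decided how much. It was 218, 222, 447 and 198 TPM there, against 136, 153, 127 and 147 TPM with shLuciferase and 170, 131, 148 and 140 TPM with shScramble. All 4 values exceeded all 8 control hairpin values, and replicate 3 was far above the other 3. The log2 fold change was 0.9 (SE 0.24, edgeR adjusted p = 0.0111), and without replicate 3 it was 0.35 (edgeR adjusted p = 0.12). Without shHIRA II replicate 2 as well, the value was again 0.35 (edgeR adjusted p = 0.0185). Replicate 3 is also the library with 1.23% mitochondrial mRNA, and with that share as a covariate the log2 fold change was 0.28 (edgeR adjusted p = 0.177). The libraries labelled shHIRA II, at 160, 224, 171 and 135 TPM, gave 0.22 (SE 0.24, edgeR adjusted p = 0.522). With both hairpins together the call (0.56, SE 0.2, edgeR adjusted p = 0.0427) held in 8 of 28 alternatives. The value was -0.04 with the covariate (edgeR adjusted p = 0.872) and 0.15 without both low libraries (edgeR adjusted p = 0.172). Between the hairpins Cdkn2a was not called, but without both it was -0.4 (edgeR adjusted p = 0.0275). Parental cells, at 199, 174, 178 and 206 TPM, lay above all control hairpin libraries.

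**Figure D4:**
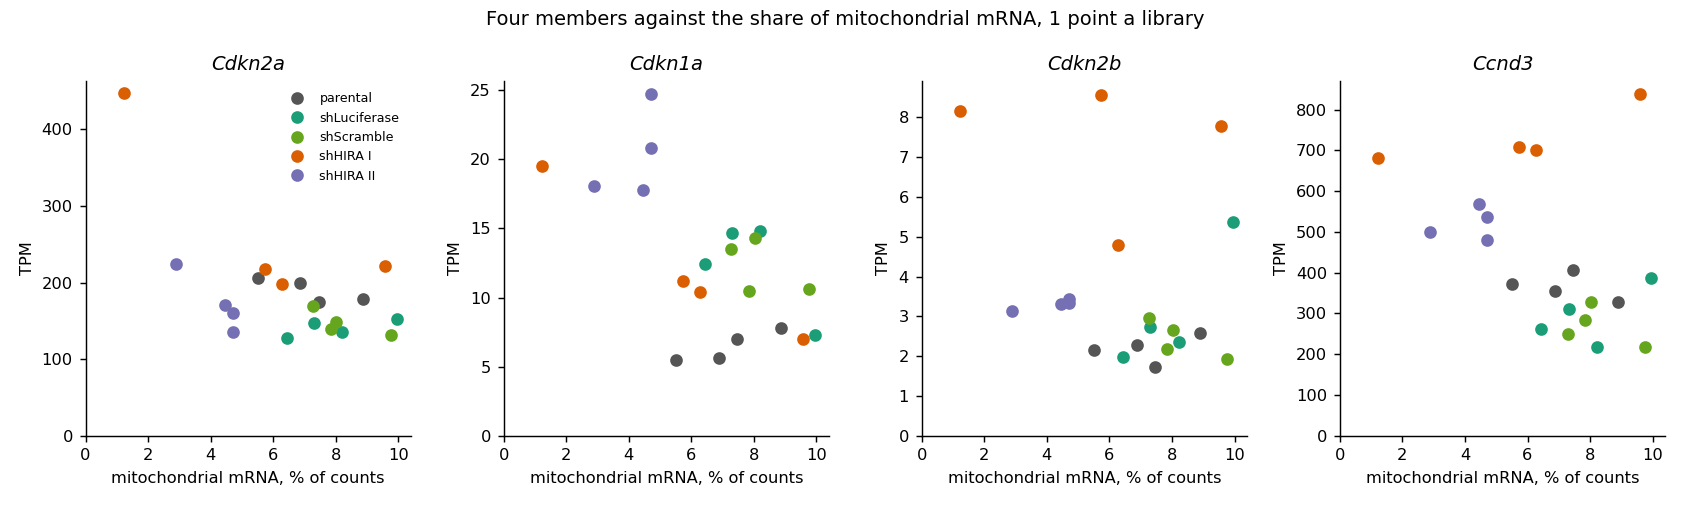
TPM (y axes, from 0) of Cdkn2a, Cdkn1a, Cdkn2b and Ccnd3 against the percent of counts from mitochondrial mRNA (x axes), 1 point a library, coloured by group. The Cdkn2a point at 447 TPM is the library at 1.23%, whereas Ccnd3 with shHIRA I is 682 to 839 TPM over the whole range from 1.23 to 9.58%.

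Cdkn2c, which encodes p18, fell in the libraries labelled shHIRA II. These held 29.5, 36.2, 42.2 and 33.1 TPM, against 85.8, 39.2, 68.8 and 65.3 TPM with shLuciferase and 88.2, 56, 56.5 and 56.9 TPM with shScramble. The log2 fold change was -0.94 (SE 0.23, edgeR adjusted p = 0.00428), called in 28 of 28 alternatives, with an overlap only at shLuciferase replicate 2. The shHIRA I libraries spread from 36.2 to 90.2 TPM and gave -0.07 with an interval of -0.5 to 0.37 (edgeR adjusted p = 0.869). The hairpins differed by -0.88 (SE 0.26, edgeR adjusted p = 0.0199). Cdkn2d, which encodes p19Ink4d, ranged from 12.6 to 41.3 TPM over the 20 libraries and was not called by edgeR in any of the 7 comparisons. With the mitochondrial covariate alone among the alternatives it was called, lower with shHIRA I (-0.82, edgeR adjusted p = 0.0477). Its group means, 22.2 to 30.9 TPM, differed by less than the largest group SD of 13.7 TPM.

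Both Cip/Kip genes lay near the threshold with 1 Hira hairpin relative to control hairpins, and the call depended on the analysis. Cdkn1b, which encodes p27, was 30.8, 39.3, 35.9 and 38.5 TPM in parental cells, 53.2, 59.5, 52.1 and 54.2 TPM with shLuciferase and 46.6, 51.2, 47.3 and 48.5 TPM with shScramble. With shHIRA I it was 70.9, 75.2, 66.4 and 61.9 TPM, and with shHIRA II 61.8, 54.3, 50.5 and 52.8 TPM. In TPM all 16 transduced libraries lay above all 4 parental ones, and the share of all genes that did so was not counted. With shHIRA I the values lay above every other group, but barely above shHIRA II (lowest 61.9 against highest 61.8 TPM). Against control hairpins, the log2 fold change with shHIRA I was 0.32 (SE 0.11, edgeR adjusted p = 0.0505), short of the threshold. It was called in 9 of 28 alternatives, among them DESeq2 (0.32, adjusted p = 0.0229), limma on TPM (0.41, adjusted p = 0.00415) and the replicate block (0.32, edgeR adjusted p = 0.046). With shHIRA II it was 0.02 (SE 0.11, edgeR adjusted p = 0.917).

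Cdkn1a, which encodes p21 and is the classic p53 target of the family, was 5.61, 6.97, 7.81 and 5.48 TPM in parental cells. It was 14.8, 7.29, 12.4 and 14.7 TPM with shLuciferase and 13.5, 10.6, 14.3 and 10.5 TPM with shScramble. With shHIRA I the values were 11.2, 7.03, 19.5 and 10.4 TPM and in the libraries labelled shHIRA II 24.7, 18.1, 17.8 and 20.8 TPM. The shHIRA II libraries were all above the control hairpin libraries, but the log2 fold change of 0.65 (SE 0.26, edgeR adjusted p = 0.063) was not called. It was called in 7 of 28 alternatives at 0.63 to 0.73, among them DESeq2 (0.68, adjusted p = 0.0462), limma on TPM (0.73, adjusted p = 0.0185), the replicate block (0.69, edgeR adjusted p = 0.0353) and the fit without both low-mitochondrial libraries (0.63, edgeR adjusted p = 0.0293). The libraries labelled shHIRA II also had the lower mitochondrial shares given above. With that share as a covariate, shHIRA II against control hairpins gave 0.16 (edgeR adjusted p = 0.642). Those shares, 2.88 to 4.71%, lay wholly below the 6.43 to 9.96% of the control hairpin libraries. The covariate fit therefore cannot tell the share from the hairpin. Between the hairpins Cdkn1a was not called in the main test. It was called at 1.2 without both low-mitochondrial libraries (edgeR adjusted p = 0.00393) and at 0.8 with the covariate (edgeR adjusted p = 0.0121).

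Rb1, the target of the D cyclin kinases, was 20.4, 10.3, 14.7 and 16.4 TPM in the libraries labelled shHIRA II. Control values were 8.09, 15.5, 12.3 and 11.9 TPM with shLuciferase and 7.78, 8.41, 9.41 and 8.39 TPM with shScramble, and the ranges overlapped. The rise of 0.52 (SE 0.18, edgeR adjusted p = 0.0347) was called in 19 of 28 alternatives, and without shHIRA II replicate 1 it was 0.37 (edgeR adjusted p = 0.17). With shHIRA I, Rb1 gave -0.05 with an interval of -0.42 to 0.31 (edgeR adjusted p = 0.874).

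Counted by separation of the libraries, 4 of the 10 genes did not overlap between shHIRA I and the control hairpins (Cdkn1b, Cdkn2a, Ccnd2, Ccnd3), where 8.46% of all tested genes did not. For shHIRA II there were 3 (Cdkn1a, Ccnd1, Ccnd3), against 22.2% of all genes. Between the Hira hairpins 4 did not overlap (Cdkn1b, Cdkn2b, Ccnd1, Ccnd3), against 15.7%. Of these, Cdkn1b was apart only by 61.9 against 61.8 TPM.

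The control hairpins against parental cells gave 2 calls among the 10 genes, both higher, where 3.62% of all tested genes were called (2.05% higher, 1.57% lower). Ccnd2 rose by a log2 fold change of 0.86 (SE 0.12, edgeR adjusted p = 0.00132), or 1.81-fold, in 28 of 28 alternatives. Cdkn1b rose by 0.44 (SE 0.11, edgeR adjusted p = 0.0398), called in 16 of 28. Ccnd3 (-0.46, edgeR adjusted p = 0.0771), Cdkn2a (-0.48, edgeR adjusted p = 0.314) and Cdkn1a (0.83, edgeR adjusted p = 0.119) were not called. At nearly the same fold changes, alternatives called Ccnd3 in 3 of 28 (DESeq2 adjusted p = 0.0414), Cdkn2a in 2 (edgeR adjusted p = 0.00978 with only the groups compared) and Cdkn1a in 6 (DESeq2 adjusted p = 0.0476). All 3 were called without both low-mitochondrial libraries, which are in neither group (edgeR adjusted p = 0.0447, 0.00529 and 0.0237). Cdkn1b, Cdkn2a and Ccnd2 did not overlap between these groups, as for 5.83% of all genes.

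Both Hira hairpin groups against parental cells gave 6 calls of 10, against 24.5% of all genes (12.5% higher, 12% lower). Cdkn1a rose by 1.14 (SE 0.29, edgeR adjusted p = 0.00698), or 2.2-fold, Cdkn2b by 0.99 (SE 0.28, edgeR adjusted p = 0.0131), Cdkn1b by 0.6 (SE 0.12, edgeR adjusted p = 0.000979) and Ccnd3 by 0.59 (SE 0.14, edgeR adjusted p = 0.00586). Ccnd2 was 0.36 higher (SE 0.12, edgeR adjusted p = 0.035), a call held in 19 of 28 alternatives, and Cdkn2c fell by 0.67 (SE 0.22, edgeR adjusted p = 0.0293), held in 21 of 28. Cdkn2a, at 0.07 with an interval of -0.41 to 0.56 (edgeR adjusted p = 0.862), was not called, although it was against control hairpins. Without both low-mitochondrial libraries it was -0.33 (edgeR adjusted p = 0.018). These comparisons share the Hira hairpin libraries, and those with control hairpins share the control libraries. Cdkn1b, Cdkn2b and Ccnd3 did not overlap between the Hira hairpin and parental libraries, as for 9.7% of all genes.

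Between shScramble and shLuciferase no gene of the 10 was called by edgeR, DESeq2 or limma, and 0% of all tested genes were called by edgeR. At an unadjusted p under 0.05 edgeR gave 170 of 13541 genes and 0 of the 10, and limma on TPM 1 of the 10. DESeq2 called 4 genes of 13541. In TPM, Cdkn1b and Ccnd2 were higher in all shLuciferase libraries than in all shScramble libraries, as 2.53% of all genes were separated in either direction. Their edgeR log2 fold changes, from scaled counts, were -0.08 and -0.28 (scramble against luciferase).

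Other genes of the pathway were taken from 3 lists. Of 25 tested genes of the G1/S machinery, 5 rose with the Hira hairpins together (Cks1b, E2f1, E2f2, E2f6, Mnat1) and 1 fell (E2f5), which is 24% against 29.3% of all genes, with a median log2 fold change of 0.11. Mnat1, the assembly factor of the CDK-activating kinase, rose by 0.73 (SE 0.12, edgeR adjusted p = 0.000198) and was called with each hairpin. E2f2, an activating E2F, rose by 1.04 (SE 0.29, edgeR adjusted p = 0.0123) and was called with shHIRA I (1.43, edgeR adjusted p = 0.00585) but not with shHIRA II (0.65, edgeR adjusted p = 0.164). In the same list, 4 genes rose and 1 fell with shHIRA I, 2 rose and 2 fell with shHIRA II, 1 differed in each direction between these hairpins, 0 were called for transduction, and 1 rose and 3 fell against parental cells. These are 20, 16, 8, 0 and 16% of the list, against 19.7, 32.4, 21, 3.62 and 24.5% of all tested genes. Of 20 E2F and Rb target genes, 2 rose (Mcm6, Ung) and 0 fell, 10% against 29.3% of all genes, with a median of 0.46. Ung, a uracil glycosylase, was called with each hairpin, and in control hairpin against parental cells it fell by 0.85 (edgeR adjusted p = 0.0126). With each hairpin 2 of the 20 rose and 0 fell, and between the hairpins 0 were called by edgeR, where the shares of all genes were 19.7, 32.4 and 21%. Transduction gave 0 higher and 2 lower (Rrm1, Ung), 10% against 3.62% of all genes, with a median of -0.64 against 0.01 over all genes. Against parental cells 0 of these 20 targets were called with the Hira hairpins (edgeR), against 24.5% of all genes, and the median was -0.2.

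Of 19 regulators of the CDK inhibitor genes, 2 rose (Id1, Zbtb17) and 5 fell (Cbx7, Ets1, Mitf, Myc, Tbx2) with the Hira hairpins. This was 36.8% against 29.3% of all genes, with a median of 0. By hairpin, Id1 and Zbtb17 were called higher with shHIRA II and not with shHIRA I. With shHIRA I 2 rose and 4 fell, with shHIRA II 2 rose and 6 fell, 2 were higher and 3 lower between the hairpins, 0 were called for transduction, and 3 rose and 4 fell against parental cells. These are 31.6, 42.1, 26.3, 0 and 36.8% of the list, against 19.7, 32.4, 21, 3.62 and 24.5% of all tested genes. Cbx7, a Polycomb subunit, and Tbx2, a T-box factor, are known repressors at the Cdkn2a locus, as are Bmi1, Ezh2, Tbx3 and Id1. With the Hira hairpins together, Bmi1, Ezh2 and Tbx3 were not called and Id1 was higher. Cbx7 fell by 0.74 (SE 0.15, edgeR adjusted p = 0.00102) and Tbx2 fell by 0.41 (SE 0.1, edgeR adjusted p = 0.00546), each called with both hairpins. Myc, known to repress Cdkn1a and Cdkn2b with Zbtb17, fell by 0.55 (SE 0.09, edgeR adjusted p = 0.000269) and Ets1, an activator of Cdkn2a, fell by 0.92 (SE 0.13, edgeR adjusted p = 4.91e-05), again with both hairpins. Mitf, the melanocyte master regulator that can activate Cdkn2a and Cdkn1a, fell by 1.9 with shHIRA II (SE 0.22, edgeR adjusted p = 8.8e-06) and had -0.53 with shHIRA I (edgeR adjusted p = 0.0809). Trp53 was not called in any comparison given here, and Mdm2, a p53 target, was called only against parental cells (0.38, edgeR adjusted p = 0.0265).

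The genes whose log2 CPM followed a member most closely over the 20 libraries were Cxx1a (Pearson r = 0.935), Scn3b (0.919) and Chn1 (0.914) for Ccnd3. They were Samd9l (0.872), Phlda1 (0.857) and Ccl5 (0.852) for Ccnd2, Clu (0.912), Col1a1 (0.904) and Tmem132a (0.897) for Cdkn2b, and Gpsm2 (0.96), Polr2m (0.92) and Spidr (0.895) for Cdkn2c. These are the highest of 13541 genes each and include differences between groups, so they are a description and carry no test. With group means removed, r in the same order of genes was 0.781, 0.49 and 0.551 for Ccnd3 and 0.594, 0.338 and 0.14 for Ccnd2. It was 0.739, 0.67 and 0.587 for Cdkn2b and 0.937, 0.876 and 0.921 for Cdkn2c. Col1a1 is a collagen on the fibroblast list.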

How the data were processed

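Poly(A) RNA-seq of 20 melb-a libraries was analysed from 2 gene tables. The deposited estimated counts and the deposited TPM values came, per the submitters' processing notes, from bcl2fastq, kallisto and edgeR with mm10. Versions, the annotation and whether strand was used are not given in the sources used here. Counts equalled TPM times 1 length per gene up to a library factor (10787 genes checked, log2 range at most 1.19e-08), so isoform shifts do not enter them. TPM summed to 793366 to 864638 per library. Overlap of groups was judged on these TPM values, whereas edgeR tests used scaled counts, so separation and fold change are on different scales. Columns were matched by name. Those named as controls without a hairpin were taken as parental, and shHIRA columns without a numeral as shHIRA I, in each case the sole group left.

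Estimated counts were rounded and tested with edgeR 4.0.16 (R 4.3.3), using TMM, its group filter on low counts and the quasi-likelihood test over all 20 libraries. A gene was called at a Benjamini-Hochberg adjusted p under 0.05 over 13541 genes. Approximate 95% intervals came from standard errors. Alternatives used DESeq2 1.42.0, limma 3.58.1 on log2(TPM + 0.5), RLE scaling, no filter, only the groups compared, a replicate block, mitochondrial share as a covariate, and libraries left out. Code was tested on simulated data. Named genes were all 10 members, list genes called with the Hira hairpins together or with each in 1 direction, and, for the 4 members of smallest adjusted p, the 3 genes of highest Pearson r. Other list and marker genes named fall outside this rule and were chosen after their values were seen. These are Cdk4, Cdk6, Cdkn1c, Trp53, Mdm2, Bmi1, Ezh2, Tbx3, Rrm1, Ednrb, Sox10, Pax3, Postn, Dcn, Col1a2, Lum, Pdgfra and Col3a1. Members and lists were chosen with earlier results of these data known.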

Additional observations from a re-analysis of the deposited data

Results flagged for a closer look

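In 3 of 50 groups of 4 libraries (each gene in each group) 1 library lay far from the other 3 by Dixon's criterion, and chance alone flags about 1 in 20. These were Cdkn2a in shHIRA I replicate 3, highest at 447 TPM, Cdkn2c in shScramble replicate 1, highest at 88.2 TPM, and Cdkn2d in shHIRA I replicate 2, lowest at 12.6 TPM.

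For 5 of the 10 genes the hairpins against Hira differed in the test of shHIRA II minus shHIRA I. The log2 differences were -1.15 for Cdkn2b, -0.88 for Cdkn2c, 1.06 for Ccnd1, 0.54 for Ccnd2 and -0.47 for Ccnd3. Hira itself was 0.86 higher in the libraries labelled shHIRA II than with shHIRA I (edgeR adjusted p = 0.00096), and its part in these differences was not tested.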

How the results depend on the processing

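Over 28 alternatives, 26 of 203 counts of called or expressed genes moved by over 1.5 times and 42 of 1960 single values changed sign. The 5 calls with the Hira hairpins together became 3 with no filter and 3 with only the groups compared, and 3 to 5 when a library was left out. The 5 between hairpins became 8 with limma on TPM, 2 with only the groups compared, 8 with the mitochondrial covariate, and 3 to 7 when a library was left out. The 2 against parental cells became 1 with no filter, 4 with DESeq2, 4 with only the groups compared, 5 without the 2 libraries of lowest mitochondrial share, and 1 to 3 when a library was left out. The causes were not tested.

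The replicate block gave 4 calls with the Hira hairpins together in place of 5. Of 40 same-numbered pairs of libraries 15 correlated above 0.1 (range -0.31 to 0.42). The highest were replicate 2 of shLuciferase with shHIRA I (0.42) and replicate 1 of shLuciferase with shScramble (0.41). Next came replicate 1 of shHIRA I with shLuciferase and with shScramble (0.36 each), so replicate 1 of these groups correlated mutually. Differently numbered pairs were not compared, so these values cannot decide whether the numbers mark a shared batch. The labels do not say that they do, and the main test did not take them as pairs.

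The mitochondrial shares of shHIRA II and control hairpin libraries did not overlap, so covariate fits comparing them cannot tell share from hairpin. With the mitochondrial covariate, signs changed for Cdkn1a (-0.25) and Cdkn2a (-0.04) with both hairpins, Cdkn1b (-0.09) and Cdkn2a (-0.35) with shHIRA II, Cdkn2a against parental cells (-0.42) and Rb1 with shHIRA I (0.12). Without the 2 libraries of lowest share they changed for Cdkn1b (-0.06) and Cdkn2a (-0.05) with shHIRA II, Cdkn2a against parental cells (-0.33, edgeR adjusted p = 0.018) and Rb1 with shHIRA I (0.05). With limma on TPM, Rb1 with shHIRA I was 0.05. Leaving out 1 library gave ranges that spanned 0, none of them called in the full data. With shHIRA I they were -0.57 to 0.18 for Cdkn1a, -0.2 to 0.16 for Cdkn2c and -0.2 to 0.04 for Rb1. With shHIRA II they were -0.06 to 0.11 for Cdkn1b, -0.05 to 0.37 for Cdkn2a and -0.26 to 0.02 for Cdkn2d. Against parental cells they were -0.21 to 0.15 for Cdkn2a with the Hira hairpins and -0.04 to 0.2 for Cdkn2d with control hairpins. Between shScramble and shLuciferase they were -0.11 to 0.2 for Cdkn1a, -0.44 to 0.13 for Cdkn2b, -0.1 to 0.24 for Cdkn2c, -0.01 to 0.47 for Cdkn2d and -0.16 to 0.12 for Ccnd3. Several calls near the threshold were lost when 1 library was left out. For Cdkn2a with both hairpins this was any parental or control hairpin library, shHIRA I replicate 3 or shHIRA II replicates 1 and 2 (highest edgeR adjusted p = 0.111). For Cdkn2c with both hairpins it was shLuciferase 1, 3 and 4, shScramble 1 and shHIRA II 1, 3 and 4 (0.0928), between hairpins shHIRA I 1 and 4 and shHIRA II 1 and 4 (0.076), and against parental cells parental 2, 3 and 4 and shHIRA II 1 and 4 (0.0808). For Rb1 with shHIRA II it was parental 3, shLuciferase 1, shScramble 1, 2 and 4 and shHIRA II 1 and 4 (0.17). For Ccnd3 between hairpins it was parental 2, 3 and 4, shLuciferase 3 and 4, shScramble 4, shHIRA I 2, 3 and 4 and shHIRA II 1, 3 and 4 (0.158). For Cdkn1b with transduction it was any parental or control hairpin library but shScramble 1 (0.13). Against parental cells, Cdkn2b was lost without parental 2 (0.0543) and Ccnd2 without parental 1 and 4, shScramble 2, shHIRA I 1 and 4 or shHIRA II 1 and 4 (0.157). Calls were also gained, beside those given with each gene. Without shHIRA I 3, Cdkn1a was called with shHIRA II (0.0131), between hairpins (0.00153) and with transduction (0.0196). Rb1 between hairpins was called in 5 of 28 alternatives (DESeq2 0.0367), Ccnd1 with both hairpins in 3 (covariate 0.49, 0.0407) and against parental cells in 2 (covariate 0.0349), Cdkn2a between hairpins in 4, and Cdkn1b with both hairpins (0.0184) and between them (0.0393) with limma. The covariate also called Cdkn1a lower with shHIRA I (-0.65, 0.0473) and Cdkn2a against parental cells (0.0423).

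Cdkn2b, at 35 estimated counts in its lowest library, had the lowest counts of the genes described here. In no comparison was its rounded SE larger than those of both Cdkn1a and Cdkn2d.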
